A study of Homo sapiens with 9 samples.

Results

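Evernic acid (EA), a depside made by the oakmoss lichen, was given alone to U-87 cells, an established human glioblastoma line, and the RNA was compared with that of untreated U-87 cells. The comparison takes 5 of the 9 samples of the series, chosen by their treatment labels: 3 untreated controls (Control1, Control2 and Control3) and 1 library each of EA at 30 µM (EA30) and at 45 µM (EA45). All were U-87 cultures in 6-well plates, treated cells were exposed for 24 h, and no group received temozolomide (TMZ), the alkylating drug given in the other 4 samples. The libraries hold 3′ ends of messenger RNA. EA30 and EA45 differ in dose and are not replicates of each other, and nothing in the labels says whether the controls were separate cultures. The p-values below therefore measure the spread between these samples, part of which may be technical. Where both doses are tested as 1 group, that spread includes the difference between EA30 and EA45.

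Glioblastoma is the most aggressive tumour of glial origin, and its stem-like cells are known for nestin and for transcription factors of the SOX family. EA is best known as a lichen metabolite with antioxidant and antimicrobial activity in laboratory assays. The mitochondrial genome, which contributes the most abundant messengers here, encodes subunits of respiratory complexes I, III and IV and of the ATP synthase.

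The deposited table gives whole-number counts for 159067 RefSeq transcripts. Totals were 269057 in Control1, 259753 in Control2 and 285248 in Control3, against 490235 in EA30 and 325812 in EA45, so EA30 is the deepest library. Of all transcripts, 4745 had at least 1 count in these 5 libraries, and the 644 that averaged 10 counts or more were tested. The tested transcripts held between 98.2% (Control3) and 98.8% (EA45) of the counts. Untreated libraries differed less from each other than from an EA library: chi-square per degree of freedom was 3.52 to 5.72 between controls, 18.5 between EA30 and EA45 and 36.1 to 50.4 between a control and an EA library.

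Gene names in this table need care, because many transcripts that cells use in quantity were listed at 0. Of 12 such genes, looked up after the values had been seen, 9 were at 0 in all 5 libraries: ACTB, GAPDH, EEF1A1, TPT1, FTL, FTH1, RPLP0, TMSB4X and B2M. The other 3 were among the most counted nuclear genes, with RPS6 at 10285 to 15942 counts, RPLP2 at 8517 to 13031 and EEF2 at 6886 to 15130. A gene at 0 is therefore described only as listed at 0. By the number of transcripts listed for a gene, 343 of 17609 genes with 1 transcript were tested (1.95%), 121 of 11882 with 2 to 5 (1.02%) and 68 of 5511 with over 5 (1.23%). The share tested also differed along 5 chromosomes, picked with their boundaries after the values had been seen: on chromosome 5, 39 of 432 genes in the first 60 Mb were tested and 8 of 1236 beyond, and on chromosome 9, 29 of 363 genes in the first 40 Mb and 10 of 1073 beyond. On chromosome 18 the same counts were 18 of 232 genes in the first 30 Mb and 2 of 387 beyond, on chromosome 6, 23 of 431 in the first 30 Mb and 9 of 1427 beyond, and on chromosome 11, 13 of 307 in the first 10 Mb and 24 of 1621 beyond. Over all nuclear genes with a position 519 of 34989 (1.48%) were tested.

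The U-87 label could not be checked against most of its markers. VIM, CD44, GFAP, CHI3L1, IL13RA2, EGFR, SOX2, OLIG2, PDGFRA and S100B were listed at 0 in all 5 libraries, and TNC had 2 counts in all. Nestin (NES), an intermediate filament protein of neural progenitors, was the most abundant of the glioblastoma markers, with 152, 169 and 174 counts in the controls, 56 in EA30 and 15 in EA45. Markers of other cell types were at or near 0: neurons 0 of 3 detected, oligodendrocytes 0 of 3, endothelium 0 of 3, epithelium 0 of 4, fibroblasts 0 of 4, and leukocytes 1 of 4, with 1 count of CD3E in Control2. Since genes that all cells use also read 0, these zeros do not exclude other cells.

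EA changed the level of 107 of the 644 transcripts (16.6%) in edgeR's quasi-likelihood test of the 2 EA libraries against the 3 controls, at a Benjamini-Hochberg adjusted p under 0.05. Of these, 58 were higher (9.01%) and 49 lower (7.61%), and in all 107 both EA libraries lay beyond every control on the same side. That position alone is common here, as 322 of the 644 transcripts (50%) had both EA libraries outside the range of the controls. The median log2 fold change was -0.01 over all tested transcripts, 1.04 over the 58 and -1.27 over the 49. Of the 107, 90 have a gene symbol and 17 are given by identifier, against 102 of all 644 without a symbol. Of those 90, 45 lie in a gene whose span overlaps another annotated gene. That share was not computed over all tested genes, so it says nothing particular to the called ones. The number of calls depends on the controls: it was 23 without Control1, 37 without Control2 and 24 without Control3. Without EA30 it was 222, when the lone EA45 library is assumed to vary like the controls. The 57 named transcripts that passed kept their direction in each fit with 1 library left out that tested them, which was all 5 such fits except for XR_001747558.1 and XR_244985.3 (3 fits each). Of the 57, 17 also kept an adjusted p under 0.05 each time.

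Tested separately against the same 3 controls, EA30 differed in 92 transcripts (14.3%) and EA45 in 224 (34.8%), with the spread taken from the controls. Both tests were passed in the same direction by 80 transcripts (12.4%), 43 higher and 37 lower, and all 80 are among the 107. The tests share their controls, and the group test uses the same libraries, so part of this agreement is built in. The overlap expected without a change was not computed. Of the transcripts described below, TDP2 and MEIKIN, for example, are among the 107 but outside the 80. Their log2 fold changes were 0.76 in EA30 and 1.99 in EA45 for TDP2, and 0.45 and 2.06 for MEIKIN. In 92 of the 107, EA45 lay further from the controls than EA30 did, against 452 of all 644.

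**Figure D1:**
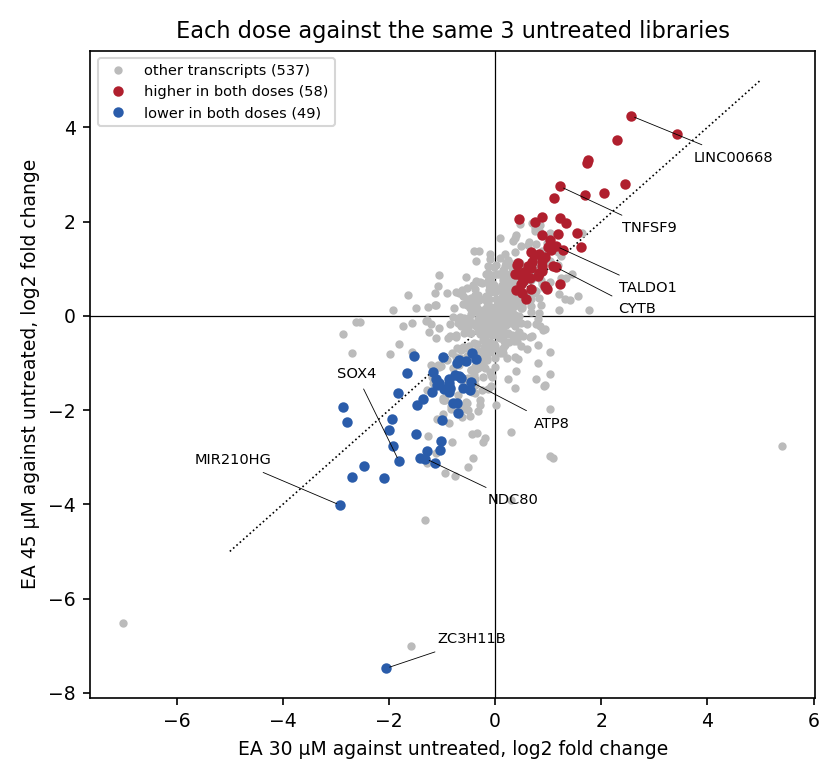
Log2 fold change of each tested transcript in EA 30 µM (horizontal) and EA 45 µM (vertical) against the same 3 untreated libraries, which both axes therefore share. Red and blue points are the 58 higher and 49 lower transcripts, the dotted line marks equal change, and ZC3H11B is far down because EA45 had 0 counts of it.

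The mitochondrial genome took a larger share of the counts with EA. Its 13 protein-coding genes held 48.6%, 48.4% and 49.1% of all counts in the controls, 58.2% in EA30 (95% Wilson interval 58.0 to 58.3) and 54.8% in EA45 (54.6 to 55.0). The intervals cover counting error only. Both EA libraries lay above all controls, by 7.74 percentage points on average. However, an exact permutation test of 3 against 2 libraries (two-sided) gives p = 0.1, the smallest it allows. The share was above all controls in the other treated libraries too. It was 51.7% with TMZ alone at 600 µM and 54.9%, 57.4% and 58.7% in the combinations of EA and TMZ. Because shares sum to a fixed total, the nuclear share moved the opposite way, and more mitochondrial RNA per cell, less nuclear RNA per cell and a change in the cells counted cannot be told apart in bulk RNA.

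Gene by gene, after normalisation over the tested transcripts, 8 of the 13 mitochondrial genes rose, 1 fell and 4 did not pass. Thus 69.2% were called, against 16.6% of all transcripts tested, with a median log2 fold change of 0.50 against -0.01 over all tested transcripts. Cytochrome b (CYTB), the subunit of complex III encoded in this genome, rose most clearly. It stood at 37075, 38406 and 37189 normalised CPM (counts scaled to 1e+06 per library) in the controls, 83170 in EA30 and 76716 in EA45, a log2 fold change of 1.09 (SE 0.09, adjusted p = 0.000204). The control values lie close together, and both EA values are about double. Among complex I genes, ND4L (1.03), ND1 (0.87), ND4 (0.79) and ND2 (0.50) rose on the log2 scale. ND3 (0.33, adjusted p = 0.0574), ND5 (0.25, adjusted p = 0.201) and ND6 (-0.52, adjusted p = 0.382) did not pass. Of the cytochrome oxidase genes, COX1 (0.71) and COX2 (0.62) rose, and COX3, with the highest level of all transcripts in the table, had a change of 0.15 (adjusted p = 0.258). As a share of all counts, COX3 was at 13.1%, 12.7% and 13.6% in the controls, 12.2% in EA30 and 11.6% in EA45. ND5 was at 1.09%, 1.20% and 1.19%, then 1.11% and 1.14%, so for COX3 and ND5 the direction depends on the scaling.

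The counts of the pair of ATP synthase genes, whose reading frames overlap, went opposite ways. ATP6 was at 18904, 18952 and 19945 CPM in the controls, 28903 in EA30 and 24833 in EA45 (log2 fold change 0.48, adjusted p = 0.0180). ATP8 was at 20677, 20500 and 17008 CPM in the controls, 14181 in EA30 and 7331 in EA45 (log2 fold change -0.85, adjusted p = 0.0337). EA45 was lower than EA30 for ATP8 by 0.95 on the log2 scale (adjusted p = 0.00132). The frames share bases at chrM:8527-8572 of GRCh38, and ND4L and ND4 share bases at chrM:10760-10766. How reads in such stretches were assigned is not given in the sources used here. The opposite changes in the counts of ATP6 and ATP8 therefore need not be those of separate messengers. CYTB, ND4L, ND1, ND4 and COX2 passed with any 1 library left out. ATP6, ATP8 and ND2 did not pass without Control1, Control2 or Control3 in turn, with adjusted p up to 0.125, 0.175 and 0.0586, and COX1 did not without Control1 or Control2 (up to 0.0574). ATP6 also did not pass in DESeq2's Wald test, while ND3 passed with DESeq2 size factors, with limma-voom, with the filter raised to 50 counts and when EA45 was left out, and ND6 when EA30 was.

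**Figure D2:**
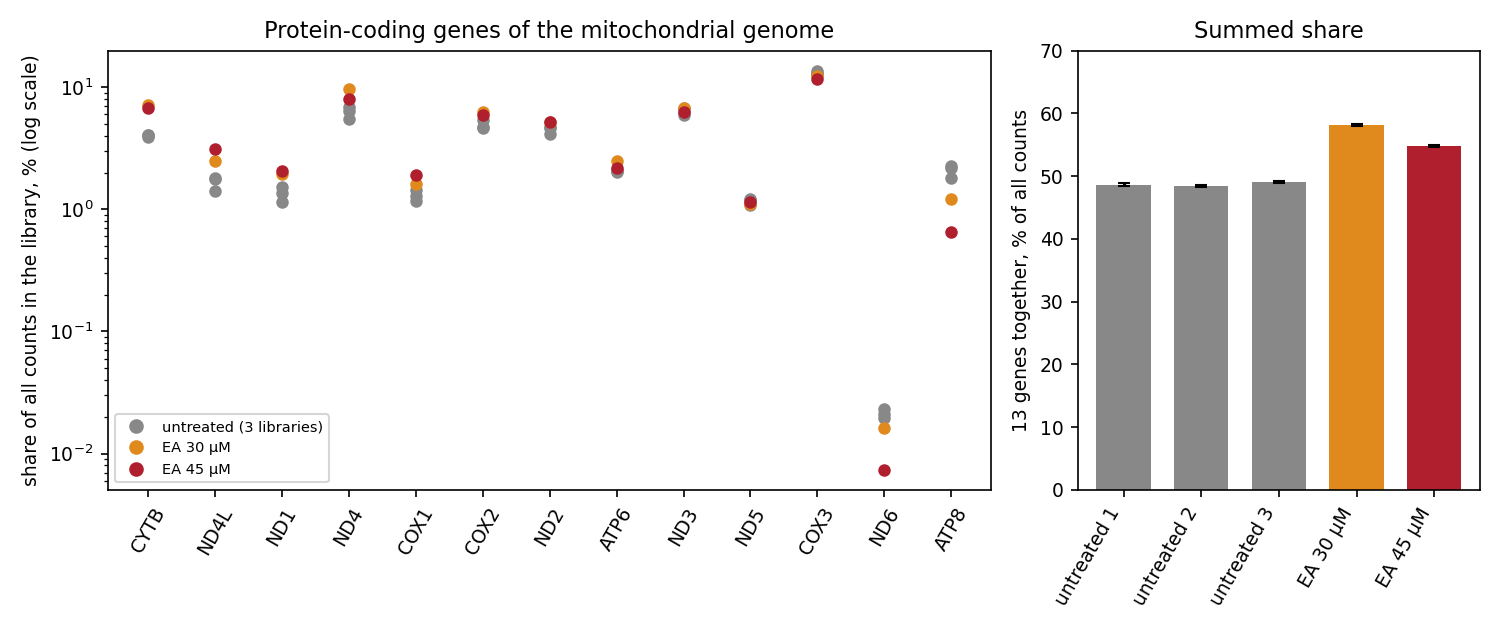
Left, share of all counts in a library (%, log scale) for each of the 13 mitochondrial genes, ordered by fold change, in 3 untreated libraries and in EA 30 µM and EA 45 µM. Right, their summed share with 95% Wilson intervals. Both EA libraries lie above the untreated ones for CYTB and below them for ATP8.

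Nuclear genes for mitochondrial proteins were mostly out of reach. Of 104 gene symbols on the list of nuclear oxidative phosphorylation 89 were at 0 and 5 were tested, 1 of them the non-coding NDUFA6-DT, and none passed. With 16.6% called over all tested transcripts, such small counts say little about a list. By unadjusted p the closest was NDUFAF3, an assembly factor of complex I, with a log2 fold change of 1.42 and an adjusted p of 0.0753 in edgeR, which passed without EA30 (0.0307). It had 9, 8 and 7 counts in the controls and entered the test through the EA libraries (24 and 27), so its fold change rests on few control counts. Of 86 mitochondrial ribosome genes 80 were at 0 and 3 were tested, with 1 called against 16.6% of all tested transcripts. MRPL45 (-0.68, adjusted p = 0.281) and MRPL54 (-0.12, adjusted p = 0.721) did not pass. MRPS30, which encodes a protein of that ribosome, rose from 266, 254 and 363 CPM in the controls to 603 in EA30 and 898 in EA45 (log2 fold change 1.34, SE 0.26, adjusted p = 0.00926). It did not pass without Control1 or Control2 (up to 0.0808). The 3 tested cytosolic ribosomal genes, RPS6, RPLP2 and RPL37, had changes of 0.14, 0.10 and 0.36 with none passing, whereas EEF2, the translocation factor of translation, rose by 0.63 (adjusted p = 0.00441) but did not pass without Control3 (0.0529).

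The largest fall among transcripts that passed belonged to MIR210HG, the host transcript of miR-210, a microRNA known for its induction by hypoxia. It stood at 545, 661 and 676 CPM in the controls, 82.8 in EA30 and 38.3 in EA45, a log2 fold change of -3.32 (SE 0.35, adjusted p = 0.000357). Both EA libraries are far below the lowest control. It was the only tested gene of the 23 on the hypoxia list, 16 of which were at 0, so the fall describes this transcript and not the list. NES fell from 518, 614 and 579 CPM to 133 in EA30 and 52.2 in EA45 (log2 fold change -2.58, SE 0.37, adjusted p = 0.00167). SOX4, a transcription factor of progenitor cells, fell from 3914, 4484 and 4229 CPM to 1200 in EA30 and 494 in EA45 (log2 fold change -2.30, SE 0.32, adjusted p = 0.00160). The EA45 library was lower than the EA30 library by 1.28 on the log2 scale for SOX4 (adjusted p = 0.000439), while for NES the difference of -1.34 had an adjusted p of 0.0606. These 3 falls passed with any 1 library left out.

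NDC80, a part of the kinetochore that binds spindle microtubules, fell from 832, 650 and 743 CPM to 298 in EA30 and 90.5 in EA45 (log2 fold change -1.90, SE 0.41, adjusted p = 0.0114). The mitosis list has 40 genes, 35 of them at 0, and the other tested member, the mitotic kinase PLK1, was at 597, 629 and 510 CPM in the controls, 584 in EA30 and 605 in EA45 (0.04, adjusted p = 0.917). The EA values of PLK1 lie inside the range of the controls. NDC80 did not pass without Control1 or Control3 (up to 0.110). Among the 10 largest falls that passed and have a symbol were also PCDH7, a protocadherin (-1.95), ADCY5, an adenylyl cyclase (-2.24), the transcripts SLC22A20P (-2.96), BNC2-AS1 (-2.18) and MORF4L1 (-2.04), and ZC3H11B (-2.85). These 6 lie low, at 11 to 94 counts per control, and ZC3H11B had 7 counts in EA30 and 0 in EA45. In the same order, SLC22A20P had 5 and 2 counts, ADCY5 8 and 3, MORF4L1 7 and 4 and BNC2-AS1 12 and 6. All but PCDH7 thus averaged under 10 counts with EA and entered the test through the controls, so their fold changes rest on few EA counts. Each of the 6 did not pass without at least 2 of the controls, with adjusted p up to 0.0895 for PCDH7, 0.193 for ADCY5, 0.0609 for SLC22A20P, 0.0943 for BNC2-AS1, 0.118 for MORF4L1 and 0.156 for ZC3H11B. ADCY5, MORF4L1 and ZC3H11B also did not pass without EA45, nor did these 3 and SLC22A20P with limma-voom.

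**Figure D3:**
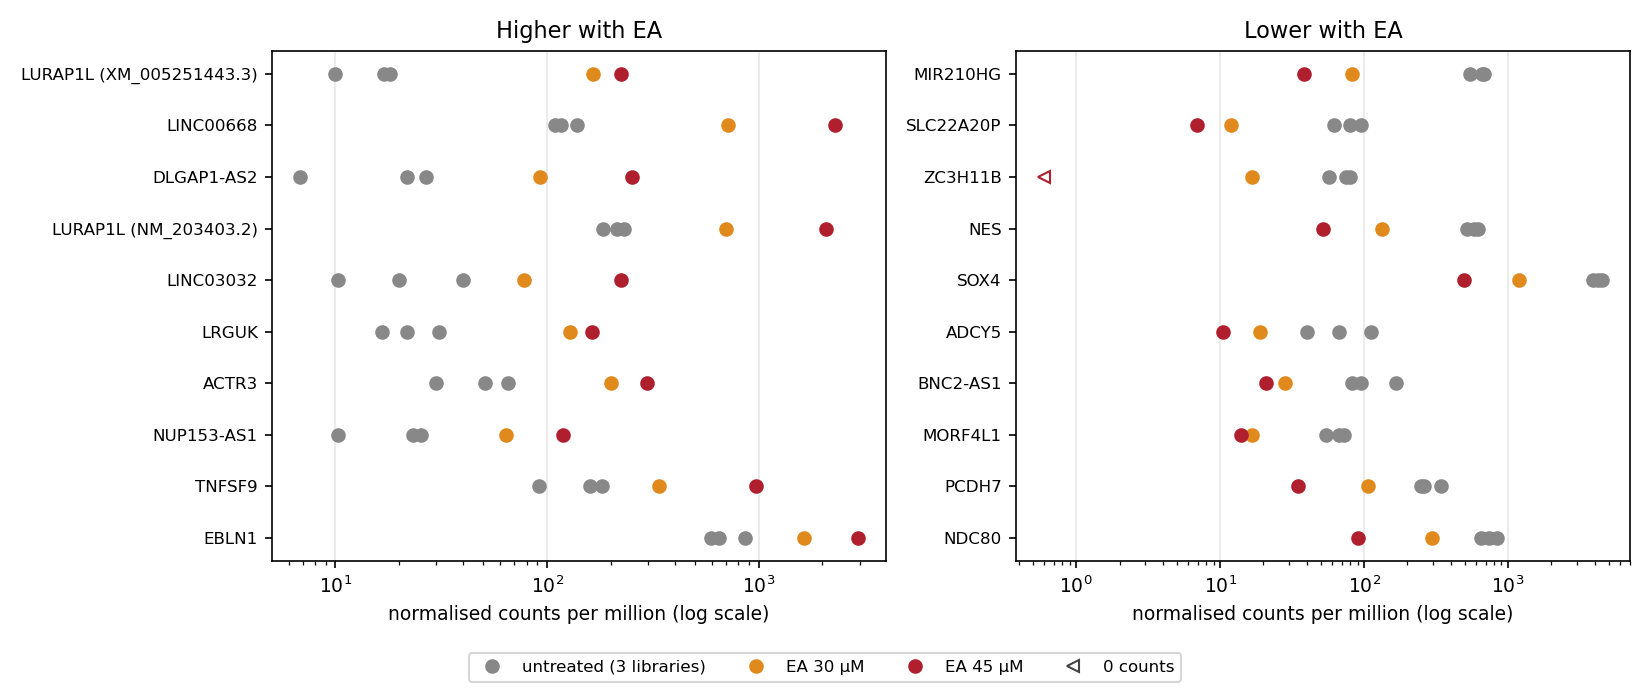
Normalised CPM (log scale) of the 10 largest rises and 10 largest falls among transcripts that passed and have a symbol, with 1 point per library: untreated in grey, EA 30 µM in orange and EA 45 µM in red. In each row both EA libraries lie on one side of the 3 untreated libraries, and the open triangle marks the 0 counts of ZC3H11B in EA 45 µM.

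Other falls came from lists with few tested members. TNFRSF10D, a decoy receptor for the death ligand TRAIL, fell from 4002, 4095 and 3976 CPM to 1881 in EA30 and 1447 in EA45 (log2 fold change -1.27, SE 0.17, adjusted p = 0.00146), and passed with any 1 library left out. IFITM1, an interferon-induced membrane protein, fell by 1.16 on the log2 scale (adjusted p = 0.0247). Its neighbour IFITM2, a close relative in sequence, was at 3283, 3303 and 3493 CPM in the controls, 3064 in EA30 and 1148 in EA45, with an adjusted p of 0.186 for the group, and passed without EA30 or without a filter. The third tested interferon-induced gene, BST2, had 0.04 (adjusted p = 0.926), so 1 of 3 was called against 16.6% of all tested transcripts. POLR2L, a small subunit of RNA polymerases, was at 9208, 10217 and 10231 CPM in the controls, 7148 in EA30 and 3295 in EA45 (-0.92, adjusted p = 0.0379). IFITM1 and POLR2L did not pass without any 1 of the 3 controls (up to 0.152 and 0.156). Of 3 tested histone genes, a group chosen after the values had been seen, H4C3 (-1.22, adjusted p = 0.00710) and H1-2 (-0.92, adjusted p = 0.00643) fell and H2BC5 (-0.78, adjusted p = 0.281) did not pass, against 7.61% of all tested transcripts that fell. H4C3 and H1-2 did not pass without Control1 or Control3 (up to 0.0583 and 0.0609). Chosen in the same way, CFAP45, a cilia-associated protein, was the most counted nuclear gene to fall, from 15679, 18636 and 17720 CPM to 6727 in EA30 and 5122 in EA45 (-1.55, adjusted p = 0.000357).

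Among transcripts that passed, the largest rises were in LURAP1L and LINC00668. LURAP1L is counted on 2 transcripts. NM_203403.2 was at 232, 214 and 183 CPM in the controls, 703 in EA30 and 2074 in EA45 (log2 fold change 2.72, SE 0.38, adjusted p = 0.00167), and XM_005251443.3 at 17.0, 18.2 and 9.99, then 166 and 223 (3.65, SE 0.41, adjusted p = 0.000507). LINC00668, a long non-coding RNA at chr18:6925474-6929869, rose from 109, 138 and 117 CPM to 712 in EA30 and 2303 in EA45 (log2 fold change 3.63, SE 0.43, adjusted p = 0.000634). EA45 exceeded EA30 by 1.69 for LINC00668 (adjusted p = 0.000219) and by 1.56 for the first LURAP1L transcript (adjusted p = 0.000439). LAMA1, a laminin chain of basement membranes, rose from 54.5, 61.8 and 73.3 CPM to 194 and 174 (1.54, adjusted p = 0.0110). It was called as 1 of 3 tested on the list of extracellular matrix and integrins, against 16.6% of all tested transcripts, with LAMC1 at -0.58 (adjusted p = 0.174) and ITGA1 at 0.07 (adjusted p = 0.905). DLGAP1-AS2 (3.17) and DLGAP1-AS1 (1.08) rose as well. They lie antisense within DLGAP1, which had 5 counts over all 5 libraries. Whether strand was used in counting is not given in the sources used here, so reads of an antisense transcript and of its partner cannot be told apart. XM_005251443.3 of LURAP1L and DLGAP1-AS2 averaged under 10 counts in the controls (5, 5 and 3 for the former and 2, 6 and 8 for the latter) and entered the test through the EA libraries, so their fold changes rest on few control counts. LINC00668 and NM_203403.2 of LURAP1L passed with any 1 library left out. XM_005251443.3 did as well, but it was selected through the EA libraries, so this adds no support for its rise. DLGAP1-AS2 did not pass without Control1 (0.0576), and LAMA1 and DLGAP1-AS1 did not without any 1 of the 3 controls (up to 0.0808 and 0.0769).

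TNFSF9, the ligand of the T-cell receptor 4-1BB, rose from 92.0, 182 and 160 CPM to 336 in EA30 and 971 in EA45 (log2 fold change 2.17, SE 0.44, adjusted p = 0.00961). The EA45 library exceeded the EA30 library by 1.53 (adjusted p = 0.0286). Of 48 TNF superfamily genes 38 were at 0 and 5 transcripts were tested, with TNFSF9 up, TNFRSF10D down and the others, CD70 on 2 transcripts and TNFRSF13C, not passing, where 16.6% of all tested transcripts were called. CD70 on NM_001252.5 passed without EA30 or without a filter. TALDO1, transaldolase of the pentose phosphate pathway, rose from 2311, 2075 and 1848 CPM to 4602 in EA30 and 5786 in EA45 (log2 fold change 1.32, SE 0.17, adjusted p = 0.00118). It was the only tested gene of 25 on the list of glycolysis and pentose phosphate. TDP2, which removes topoisomerase 2 adducts from DNA ends, rose from 215, 222 and 190 CPM to 353 in EA30 and 828 in EA45 (log2 fold change 1.49, SE 0.34, adjusted p = 0.0155), also as the only tested gene of its list of 30. TALDO1 passed with any 1 library left out. TNFSF9 did not without Control1 or Control3 (up to 0.0895), and TDP2 did not without EA45 or any 1 of the 3 controls (up to 0.110).

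The other rises among the 10 largest that passed and have a symbol were EBLN1 (1.71), LRGUK (2.63), ACTR3 on NM_001277140.1 (2.34), LINC03032 (2.65) and NUP153-AS1 (2.18). EBLN1, a gene derived from an ancient bornavirus, stood at 859, 650 and 593 CPM in the controls, 1645 in EA30 and 2940 in EA45. ACTR3 encodes a subunit of the actin-nucleating Arp2/3 complex, and its transcript was at 51.1, 65.4 and 30.0 CPM in the controls, 201 in EA30 and 296 in EA45. LRGUK (9, 6 and 5 counts), LINC03032 (3, 11 and 6) and NUP153-AS1 (3, 7 and 7) also averaged under 10 counts in the controls and entered the test through the EA libraries. EBLN1 passed with any 1 library left out. LRGUK did as well, but it was selected through the EA libraries, so this adds no support for its rise. ACTR3 did not without Control1 (0.0510), LINC03032 without Control1, Control3 or EA45 (up to 0.110) and NUP153-AS1 without EA45 or any 1 of the 3 controls (up to 0.119) or with limma-voom. ACTR3, MORF4L1, ZC3H11B, the IFITM genes, the tubulins and the histones have close copies in the genome, and how reads that match several places were counted is not given in the sources used here, so their levels are uncertain.

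Over the non-coding transcripts as a class, 12 of 205 tested rose and 16 fell (13.7% called), against 16.6% of all transcripts. On the list of solute carriers 12 transcripts were tested and none passed (median log2 fold change 0.03). That list leaves out SLC22A20P (-2.96) and SLC35G6, which both passed. Of the symbols starting with ZNF 10 were tested, ZNF606-AS1 and ZNF519 on non-coding records, and none passed (median 0.20). Of the 3 tested tubulins none passed: TUBB6 was at 774, 712 and 806 CPM in the controls, 426 in EA30 and 567 in EA45 (-0.63, adjusted p = 0.0747), and TUBB2B had 54, 45 and 29 counts in the controls, 21 in EA30 and 25 in EA45 (-1.13, adjusted p = 0.0923). TUBB6 and TUBB2B lay below every control in both EA libraries and passed without EA45, and TUBA4B had a log2 fold change of 0.20 (adjusted p = 0.832). TUBB6 also passed with the filter raised to 50 counts. Of 70 Wnt pathway genes 59 were at 0, and none of the 5 tested passed, which says little where 16.6% of all tested transcripts were called. TCF7L1, a repressor of Wnt targets, was at 9999, 9930 and 10004 CPM in the controls, 9134 in EA30 and 7815 in EA45 (-0.24, adjusted p = 0.240). TLE6, a corepressor, had the largest change of the 5 (-1.29, adjusted p = 0.143), below every control in both EA libraries. WNT5A had a log2 fold change of 0.30 (adjusted p = 0.323), the receptor FZD7 -0.13 (adjusted p = 0.803), and DKK4, an inhibitor of Wnt signalling, -0.05 (adjusted p = 0.959). NSD3, a histone methyltransferase, had -0.28 (adjusted p = 0.244). NSD3 and TCF7L1 passed without EA30. Complement component C3 (0.58, adjusted p = 0.0606) did not pass except without EA30, without EA45 or without a filter, and no gene could be tested on the lists of endoplasmic reticulum stress, the proteasome, NRF2 targets, cholesterol synthesis and p53 targets, with 34, 56, 15, 19 and 18 genes.

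The promoters of 4 genes are shown, picked after the values and matches had been seen from the 17 named transcripts that passed with any 1 library left out. The choice favours promoters with a match: of others among the 17, LURAP1L has none and SOX4 has 4 to the CCAAT box. They are RefSeq sequences on GRCh38.p14, from 250 bases before to 50 after the gene start, with capitals for matches on either strand to the hypoxia response core ACGTG, the CCAAT box, the AP-1 site, the antioxidant response core or the ATF4 core, searched after the values had been seen. The counts come from the 3′ end and say nothing on which start was used.

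MIR210HG (chr11:568408-568707, minus strand, fell): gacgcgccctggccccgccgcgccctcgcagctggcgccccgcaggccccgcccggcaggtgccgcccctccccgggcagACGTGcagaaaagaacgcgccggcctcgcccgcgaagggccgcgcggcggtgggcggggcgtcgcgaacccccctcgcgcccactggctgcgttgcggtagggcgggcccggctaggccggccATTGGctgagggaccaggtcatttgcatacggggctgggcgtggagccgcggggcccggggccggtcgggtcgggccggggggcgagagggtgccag
NES (chr1:156677358-156677657, minus strand, fell): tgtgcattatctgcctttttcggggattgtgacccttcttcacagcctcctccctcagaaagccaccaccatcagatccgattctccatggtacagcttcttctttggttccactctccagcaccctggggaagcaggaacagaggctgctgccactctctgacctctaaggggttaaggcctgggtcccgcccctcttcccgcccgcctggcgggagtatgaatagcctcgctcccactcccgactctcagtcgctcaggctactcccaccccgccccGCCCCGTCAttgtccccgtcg
TALDO1 (chr11:747214-747513, plus strand, rose): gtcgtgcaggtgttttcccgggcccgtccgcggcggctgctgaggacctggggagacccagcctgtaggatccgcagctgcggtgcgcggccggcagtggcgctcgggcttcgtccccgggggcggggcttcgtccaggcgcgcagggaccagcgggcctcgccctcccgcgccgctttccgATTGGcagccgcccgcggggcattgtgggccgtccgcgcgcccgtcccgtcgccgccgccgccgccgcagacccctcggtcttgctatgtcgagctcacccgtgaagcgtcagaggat
LINC00668 (chr18:6929820-6930119, minus strand, rose): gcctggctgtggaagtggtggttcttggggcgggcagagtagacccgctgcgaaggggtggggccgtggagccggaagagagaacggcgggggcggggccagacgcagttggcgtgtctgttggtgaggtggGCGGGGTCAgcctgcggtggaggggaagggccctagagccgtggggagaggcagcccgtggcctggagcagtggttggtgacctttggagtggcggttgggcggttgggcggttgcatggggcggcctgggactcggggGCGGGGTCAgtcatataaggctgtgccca

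MIR210HG has a match to ACGTG, held by 21.4% of all 35116 promoters in the table, and a match to CCAAT (34.6%), which TALDO1 has as well. NES has 1 and LINC00668 has 2 matches to the antioxidant response core (13.3% of all promoters hold it). A match is a description of the letters. Of the promoters of the called genes, 7 of 41 that rose and 8 of 40 that fell hold ACGTG, 10 of 41 and 11 of 40 hold the CCAAT box, and 8 of 41 and 7 of 40 hold the antioxidant core. The AP-1 site is in 2 of 41 and 3 of 40 (7.71% of all promoters), and the ATF4 core in 2 of 41 and 0 of 40 (3.62%).

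EA45 and EA30 were compared directly, with the spread taken from the controls since each dose is 1 library, so a difference between doses and one between these libraries cannot be told apart. They differed in 46 transcripts (7.14%), 19 higher and 27 lower in EA45, and 22 of the 46 are among the 107. The count was 83 without Control3 and 26 with DESeq2's Wald test. Outside the 107, and named after their values were seen, CD70 on NM_001252.5 was higher in EA45 by 1.77 on the log2 scale (adjusted p = 1.9e-05) and IFITM2 lower by 1.42 (adjusted p = 9.96e-05). MEIKIN, a meiotic kinetochore gene that rose with EA, was at 535, 516 and 593 CPM in the controls, 748 in EA30 and 2283 in EA45 (EA45 minus EA30 1.61, adjusted p = 0.000165). ROCK1, a kinase of the actin cytoskeleton, went the other way, with 1909, 1853 and 1795 CPM in the controls, 4323 in EA30 and 2978 in EA45 (-0.54, adjusted p = 0.0391). Against the controls, MEIKIN did not pass without EA45 or any 1 of the 3 controls (up to 0.152) or with limma-voom, and ROCK1 did not without any 1 of the 3 controls (up to 0.0696).

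Against the single library of TMZ at 600 µM, EA differed in 14 of 649 transcripts (2.16%), 9 higher and 5 lower. The spread came from the controls and the EA libraries, and an effect of TMZ and one of that library cannot be told apart. Of these, 13 are among the 107. Among the falls with EA, MIR210HG (-3.13) and TNFRSF10D (-1.66) were also lower in TMZ600 than in the controls, on the log2 scale, while NDC80 was higher there (0.72). CYTB was at 38775 CPM in TMZ600, close to the controls, and higher with EA by 1.07 (SE 0.13, adjusted p = 0.00332). TALDO1 was at 2184 CPM in TMZ600 (difference 1.28, adjusted p = 0.0259) and LINC00668 at 252 CPM (2.60, adjusted p = 0.0492). NDC80 was at 1244 CPM in TMZ600, above all controls, with a log2 difference of -2.61 for EA (adjusted p = 0.0210). RRAGA, a GTPase that relays amino acid levels to mTORC1, was at 4611, 5619 and 4750 CPM in the controls of this fit, 7833 in EA30, 8684 in EA45 and 2666 in TMZ600. It was higher with EA than with TMZ600 by 1.63 (adjusted p = 0.00366), with the controls between them. For MIR210HG (-0.19, adjusted p = 0.899), NES (-0.76, adjusted p = 0.425) and SOX4 (-0.90, adjusted p = 0.205) no difference from TMZ600 was detectable with 1 library, at 72.8, 164 and 1623 CPM there. The number of differences was 2 without Control1, 5 without Control2, 2 without Control3, 164 without EA30 and 53 without EA45. Of the 14, CYTB and RRAGA passed with any 1 library left out. TALDO1 and LINC00668 did not pass without any 1 of the 3 controls (up to 0.0951 and 0.133), and NDC80 did not without Control1 or Control3 (up to 0.0951). With the filter raised to 50 counts, these 3 did not pass either. LINC00668 also did not pass with limma-voom or with mitochondrial transcripts left out.

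**Figure D4:**
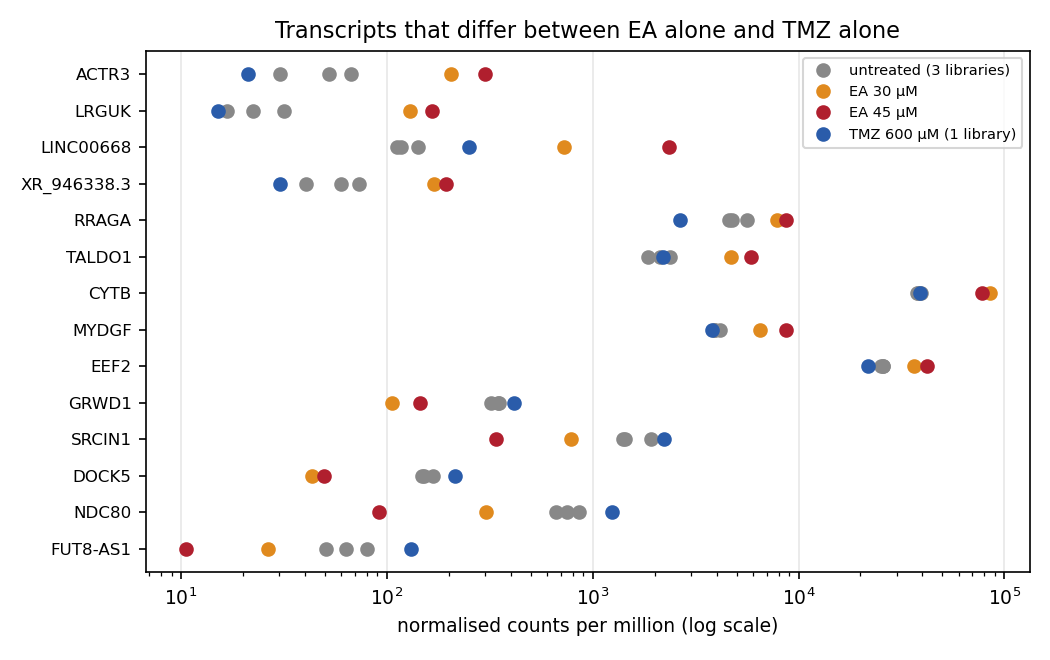
Normalised CPM (log scale) of the 14 transcripts that differ between EA alone and TMZ 600 µM, with 1 point per library: untreated in grey, EA 30 µM in orange, EA 45 µM in red and TMZ in blue. The top 9 are higher with EA and the lower 5 are lower, NDC80 at 1244 in TMZ.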

How the data were processed

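The authors deposited 1 table of whole-number read counts per RefSeq transcript, not normalised. The submitters' processing notes name HISAT2, HTSeq and hg38. Their versions, counting settings and annotation release are not given in the sources used here. Symbols and positions came from RefSeq on GRCh38.p14, for 114056 of 159067 transcripts (57755 with and 56301 without the version); the unmatched hold 4.63% of all counts. The 3 controls and the 2 EA libraries were compared with edgeR 4.0.16 (TMM, quasi-likelihood F-test, mean of at least 10 counts, Benjamini-Hochberg adjusted p under 0.05; limma 3.58.1, DESeq2 1.42.0, R 4.3.3, Python 3.11.15, pandas 2.3.3, numpy 2.4.6, scipy 1.17.1, matplotlib 3.10.9). The single-dose tests used the same 5 libraries with 1 coefficient per condition, and the test against TMZ600 added that library, whose CPM comes from that fit. A transcript moved in both doses when it passed the group test and both EA libraries lay beyond every control. The fits were tested on simulated data. At these depths, 3 counts, the most that a 0 allows by counting error, are 7.10 normalised CPM in EA30 and 10.9 in Control2.

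Named genes are the 10 largest rises and 10 largest falls with a symbol and the 13 mitochondrial genes. Added were genes chosen by name (TUBB6, TUBB2B, NDC80, PLK1, TCF7L1, FZD7, WNT5A, NSD3, DKK4) and called members of the gene lists except the histones. These make 69 transcripts in all. The called members and the lists were chosen with earlier results of these data known. Other transcripts in the text, such as H4C3, H1-2, EEF2, CFAP45, MEIKIN, ROCK1 and RRAGA, are outside the 69 and the counts of named transcripts. Alternatives were DESeq2 size factors, DESeq2's Wald test, limma-voom, other filters, a fold threshold, mitochondrial transcripts left out, all 9 libraries in the fit, and each library left out. Control numbers pair no libraries.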

Additional observations from a re-analysis of the deposited data

Results flagged for a closer look

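For 12 of the 69 named transcripts EA45 differed from EA30 in the test of the doses themselves, against 46 of all 644 (7.14%). That test has 1 library per dose and takes the spread from the controls. A difference between doses and one between these 2 libraries therefore cannot be told apart. Lower in EA45 than in EA30, on the log2 scale, were XR_922175.3 (-1.81), NDC80 (-1.72), SOX4 (-1.28), IFITM1 (-1.12), POLR2L (-1.12), XR_924269.2 (-1.05) and ATP8 (-0.95). Higher in EA45 were LINC00668 (1.69), LURAP1L on NM_203403.2 (1.56), TNFSF9 (1.53), TDP2 (1.23) and EBLN1 (0.84). In each of the 12, EA45 lay further from the controls than EA30 did, as in 92 of the 107 called and 452 of all 644. ROCK1, called but outside the named transcripts, went the other way, with 4323 CPM in EA30 and 2978 in EA45.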

How the results depend on the processing

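The 107 calls of EA against the controls, which are also those that moved in both doses, became 68 when a log2 change of 1 or more in size was also required. Under the 7 other settings with all 5 libraries the count for EA against controls lay between 92 and 122. With 1 library left out it ranged from 23 to 222, and for moved in both doses from 23 to 37 over the controls. That result could not be computed without an EA library. EA30 against controls gave 47 calls with the fold threshold. EA45 against controls stayed between 150 and 240. EA45 against EA30 gave 26 with DESeq2's Wald test, 28 with the fold threshold and 53 to 83 with a control left out. EA against TMZ600 gave 9 without mitochondrial transcripts, 22 with the Wald test, 35 without a filter, 3 with the filter raised to 50 counts, and 2 to 164 with 1 library left out. The difference in mitochondrial share ranged from 6.06 to 9.43 percentage points with 1 library left out. Without a filter the median log2 fold change over all transcripts was -0.32, with most of them at a few counts. Of the 57 named transcripts past the threshold, 45 kept it under every setting with all libraries in which they were tested, the fold threshold aside. Without Control1, Control2 and Control3, 37, 32 and 34 of them lost it. The cause was not tested. No sign changed among those 57 in the fits that tested them, 3 of 5 for XR_001747558.1 and XR_244985.3. Among named genes that did not pass, PLK1 went from 0.04 to -0.00453 with all 9 libraries in the fit. With 1 library left out PLK1 ranged from -0.0446 to 0.0928, DKK4 from -0.337 to 0.186 and FZD7 from -0.534 to 0.195. No paired analysis was possible because the EA libraries carry no shared replicate number. Depth limits low transcripts most.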
